A study of Homo sapiens with 6 samples.

Results

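The PAR-CLIP-only sites described here are stretches of mRNA that were recovered with AEG-1 in the PAR-CLIP AEG1 library and in neither HITS-CLIP AEG1 library, although both HITS-CLIP AEG1 libraries had a site elsewhere on the same mRNA. They were chosen by 3 conditions: a width under 300 nt in PAR-CLIP AEG1, a place on an mRNA with at least 1 site in each HITS-CLIP AEG1 replicate (a shared mRNA), and no overlap of even 1 nt with a site of either replicate. Of 13681 PAR-CLIP AEG1 sites under 300 nt on the 1321 shared mRNAs, 10700 met these conditions, which is 78.2% and is the share that the choice itself sets. They were 17.8% of all 60085 PAR-CLIP AEG1 sites. PAR-CLIP width and HITS-CLIP overlap chose the sites, so their number, their narrow width and their lack of overlap are a description.

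AEG-1, encoded by MTDH, is a protein of the endoplasmic reticulum (ER) membrane that is often raised in liver cancer and that binds RNA. At the ER, ribosomes that make secreted and membrane proteins dock at the translocon, so an RNA-binding protein in that membrane lies close to the mRNAs under translation there. CLIP joins a protein to the RNA it touches with UV light, trims the RNA with a nuclease, precipitates the protein and sequences the RNA that stays attached. HITS-CLIP uses short-wave UV on unmodified RNA, whereas PAR-CLIP commonly feeds cells a thiolated nucleoside and uses longer-wave UV; the labels name no such compound.

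All 6 libraries came from AEG-1-14, a line derived from the hepatoblastoma line HepG3 that stably expresses AEG1 tagged with HA at the C-terminal end, so the controls carry the tagged protein too. HITS-CLIP AEG1 (2 libraries) was irradiated at 254 nm and PAR-CLIP AEG1 (1 library) at 365 nm, and the HITS-CLIP control (2 libraries) and PAR-CLIP control (1 library) received no UV. RNA was pulled down with an anti-HA antibody in each group, so binding by untagged AEG-1 was not measured, and the line is the only one in the study. The labels name no second PAR-CLIP AEG1 library, so no value of the PAR-CLIP-only sites has a replicate check, and nothing says whether the HITS-CLIP replicates were separate cultures. The lists held 60085 PAR-CLIP AEG1 sites, 6378 and 5651 HITS-CLIP AEG1 sites, 121 PAR-CLIP control sites and 60 and 90 HITS-CLIP control sites. Read counts and sequencing depth are unknown, since each list gives only positions and a score. All 6 hepatic marker mRNAs (ALB, AFP, APOB, TTR, SERPINA1 and FGB) had sites in HITS-CLIP AEG1 and in PAR-CLIP AEG1. ALB had 11 and 9 sites in the HITS-CLIP controls and 13 in the PAR-CLIP control, beside 5 and 10 in HITS-CLIP AEG1 and 3 in PAR-CLIP AEG1. SERPINA1 had sites in every control too, and APOB had 1 in the PAR-CLIP control. Of 9 markers of other cell types, CD14, CD68 and LYZ had sites, and PTPRC, PECAM1, VWF, COL1A1, COL1A2 and DCN had none in any library. The part of other cells in the sites was not tested.

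Positions are counted from 1 at the first base of the RefSeq transcript that the lists name, and no genome build is given for them. The score is the authors' log2 value, and it is used here only to compare sites of the same mRNA, because each transcript appears to have its own scale. On shared mRNAs, 23.9% of 10821 HITS-CLIP AEG1 scores equalled a PAR-CLIP AEG1 score of the same mRNA within 1e-05, and 0 equalled a score of the next mRNA in the list. These equal values point to a scale per mRNA that the libraries share, but the formula of the score is not stated. Whether the score was adjusted for the size of a library is not known. Sites under 300 nt on shared mRNAs that do overlap a HITS-CLIP AEG1 site are called covered sites below, and there were 2981 of them. A further 1028 PAR-CLIP AEG1 sites on shared mRNAs were 300 nt or wider, of which 879 overlapped a HITS-CLIP AEG1 site and 149 did not.

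Most shared mRNAs carried PAR-CLIP-only sites. At least 1 was found on 1151 of the 1321 shared mRNAs, or 87.1%. Of the other mRNAs, 77 had no PAR-CLIP AEG1 site, 23 had only wide ones, and on 70 every narrow site was covered. The median shared mRNA had 6 PAR-CLIP-only sites beside 2 sites in HITS-CLIP AEG1 replicate 1 and 2 in replicate 2. Their number was uneven between mRNAs: 126 mRNAs had 1 PAR-CLIP-only site, whereas 116 mRNAs with 20 or more held 31.5% of them all. On 243 of 1221 mRNAs with a narrow site (19.9%), no narrow site was covered. Weighed by length, PAR-CLIP-only sites made up less: they held 49.7% of the nt within all PAR-CLIP AEG1 sites on shared mRNAs. On the median mRNA they held 54.8% of these nt and 44.5% of the summed linear score, beside 80% of the narrow sites.

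The 10 mRNAs with the most PAR-CLIP-only sites were long messages of cytosolic, nuclear and membrane proteins. UBR4, a very large ubiquitin ligase of the N-degron pathway, had 88 of them. On UBR4, HITS-CLIP AEG1 gave 1 site of 27 nt in replicate 1 and 1 of 25 nt in replicate 2, both starting at nt 13893, and no control had a site. PAR-CLIP AEG1 tiled the same mRNA from nt 332 to 15742, with 79 PAR-CLIP-only sites before the HITS-CLIP place and 9 after it. Scores of the 88 ran from 4.64 to 8.63 with a median of 6.30, beside 6.72 and 7.04 for the HITS-CLIP sites. The UBR4 sites thus lay on both sides of the HITS-CLIP scores, and a single spot near the end of a long message is what made UBR4 shared.

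CDK6, the cyclin-dependent kinase that drives the G1 phase, had 67 PAR-CLIP-only sites, and all 67 lay after the last HITS-CLIP AEG1 site. Its HITS-CLIP AEG1 sites sat near the 5′ end, at nt 257 to 288 in replicate 1 and at nt 159 to 212 and 256 to 288 in replicate 2. HITS-CLIP control 2 also had a CDK6 site there, at nt 261 to 286, with a score of 8.12 beside 10.29 and 10.37 in the irradiated replicates. The PAR-CLIP-only sites of CDK6 spread from nt 607 to 11690, and their top score of 10.58, at nt 884 to 1071, was the highest PAR-CLIP AEG1 score of the mRNA. No control had a site within them.

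DYNC1H1, the heavy chain of the dynein motor, showed the other arrangement, with PAR-CLIP-only sites interleaved with HITS-CLIP ones. HITS-CLIP AEG1 gave 12 and 11 DYNC1H1 sites from nt 2229 to 14051, and 50 of the 66 PAR-CLIP-only sites lay between them, 15 before and 1 after. INSR, the insulin receptor, had 41 PAR-CLIP-only sites from nt 227 to 8896, beside 7 and 7 HITS-CLIP AEG1 sites from nt 556 to 4108. Of the INSR sites, 14 lay between HITS-CLIP sites and 26 in the stretch after them, where HITS-CLIP AEG1 had no site. Both mRNAs had no control site.

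Among the remaining 6, PRKDC (the catalytic subunit of the DNA-dependent protein kinase) had 65 PAR-CLIP-only sites, with 5 and 1 HITS-CLIP AEG1 sites. FLNA, which crosslinks actin filaments, had 43 with 5 and 7 HITS-CLIP AEG1 sites, and 32 of the 43 lay between these. GCN1, which binds ribosomes and activates the kinase GCN2, had 42 with 5 and 3. LMTK2, a membrane-anchored kinase, had 50 PAR-CLIP-only sites and no covered one, with HITS-CLIP AEG1 sites confined to nt 186 to 281 and 49 of the 50 after them. ARHGAP35, a GTPase-activating protein, had 51 with 1 and 2 HITS-CLIP AEG1 sites. MKI67, the proliferation antigen Ki-67, had 61 PAR-CLIP-only sites. The only MKI67 site of HITS-CLIP AEG1 replicate 2, at nt 3660 to 3677 with a score of 5.45, coincided with a site in both HITS-CLIP controls, at nt 3660 to 3677 (5.45) and nt 3660 to 3679 (4.45).

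For 3 of these 10 the standing as a shared mRNA rested on HITS-CLIP AEG1 sites of 25 nt or less. Without sites that short, UBR4, MKI67 and ARHGAP35 were no longer shared and had 0 PAR-CLIP-only sites by the rule. The other 7 then had 67 (CDK6), 66 (DYNC1H1), 65 (PRKDC), 50 (LMTK2), 43 (FLNA), 43 (GCN1) and 42 (INSR). Over all mRNAs, 1104 were then shared and carried 9403 PAR-CLIP-only sites.

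**Figure D1:**
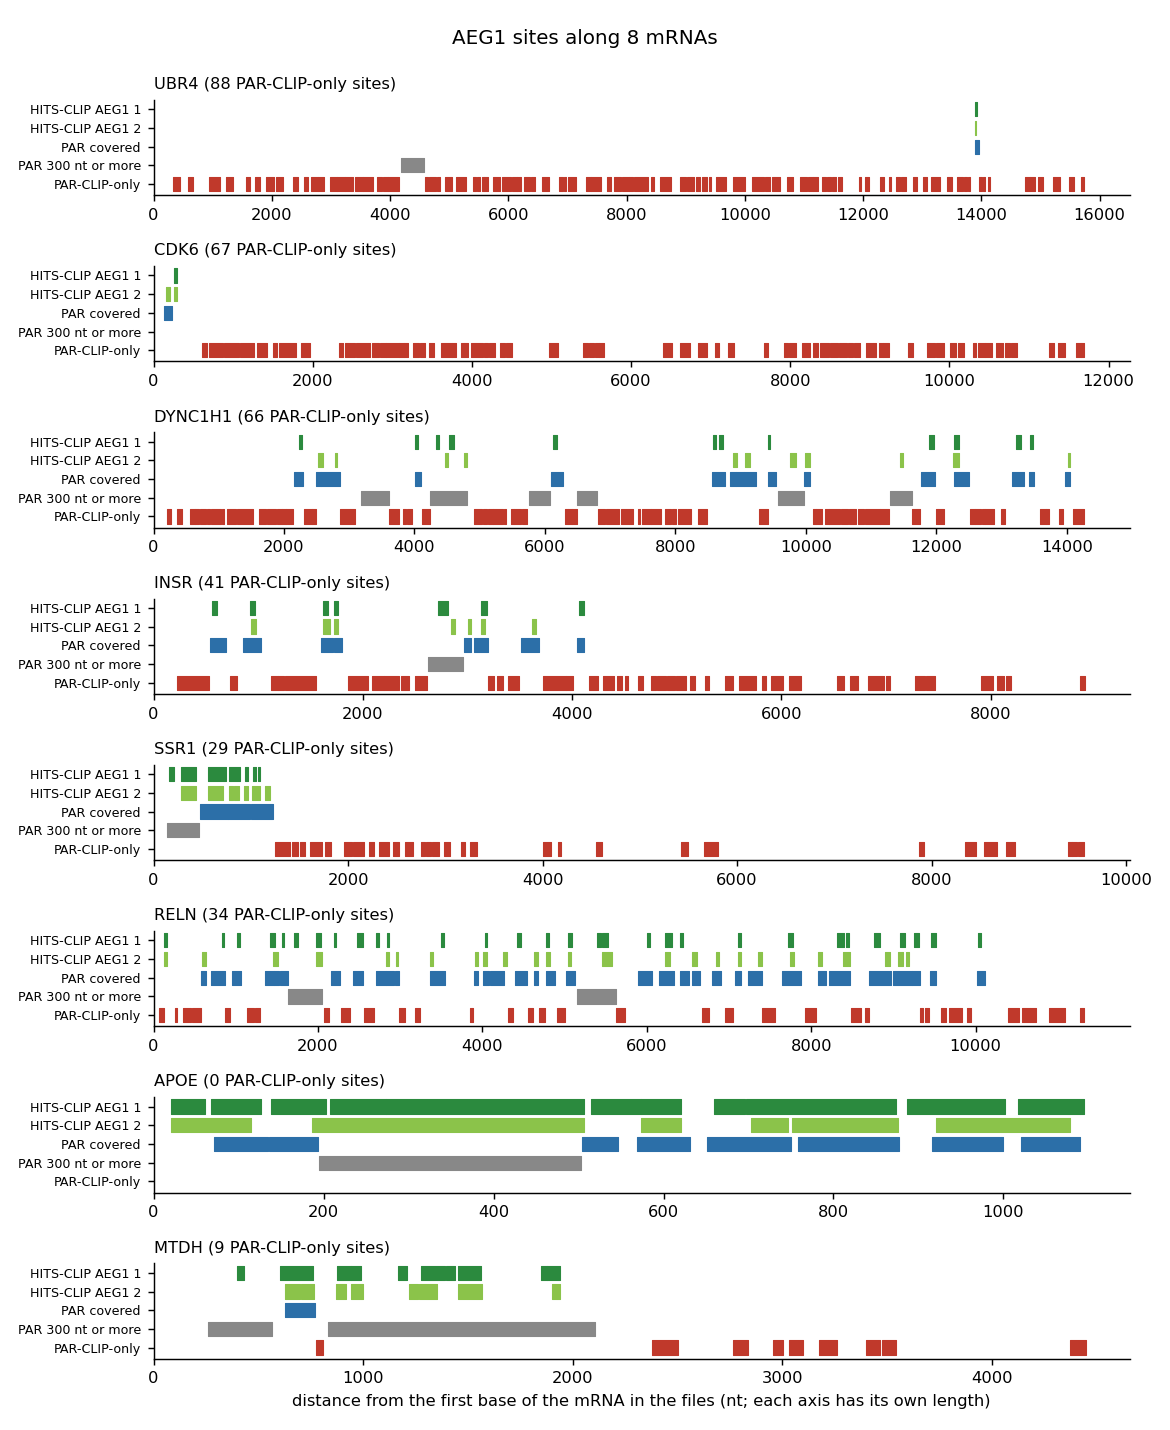
AEG-1 sites along 8 mRNAs, each on its own horizontal axis in nt from the first base of the transcript, with 1 track for each HITS-CLIP AEG1 replicate and 3 tracks for PAR-CLIP AEG1 (covered sites, sites of 300 nt or more, and PAR-CLIP-only sites in red). UBR4, CDK6 and SSR1 have PAR-CLIP-only sites far from every HITS-CLIP site, DYNC1H1 and RELN have them between HITS-CLIP sites, and APOE has none.

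The 8 mRNAs with the most narrow PAR-CLIP AEG1 sites and no PAR-CLIP-only site were all of secreted, ER or cell-surface proteins. Their HITS-CLIP AEG1 sites ended at nt 2775 (TGFBI) or earlier. APOE, the apolipoprotein of lipid particles, had 8 narrow PAR-CLIP AEG1 sites, all covered, with 11 and 6 HITS-CLIP AEG1 sites from nt 20 to 1094. Those HITS-CLIP sites held 973 nt of that stretch in replicate 1 and 787 nt in replicate 2. TGFBI, a secreted matrix protein, had 7 narrow sites and 21 and 20 HITS-CLIP AEG1 sites, and OS9, a lectin of ER-associated degradation, had 7 and 16 and 17. RARRES2 (the secreted chemoattractant chemerin) had 5 narrow sites, and SERPINA6 (the carrier of corticosteroids in blood) and LGALS3BP (a secreted glycoprotein) had 4 each. HLA-C, a cell-surface antigen-presenting protein, had 5 and is uncertain, since near-identical genes can share reads. On these 8 mRNAs the HITS-CLIP AEG1 sites of replicate 1 held between 270 nt (RARRES2) and 1693 nt (TGFBI), against 27 nt on UBR4, 32 nt on CDK6 and 79 nt on LMTK2. The part of HITS-CLIP cover in the lack of PAR-CLIP-only sites was not tested.

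PAR-CLIP-only sites were narrower than covered sites of the same mRNAs. Their median width was 74 nt (quartiles 55 to 109 nt), against 117 nt (76 to 176 nt) for covered sites. Narrow PAR-CLIP AEG1 sites on mRNAs without a HITS-CLIP AEG1 site, 36921 in number, had a median of 69 nt (53 to 94 nt), so in width the PAR-CLIP-only sites stood nearer to those. HITS-CLIP AEG1 sites on shared mRNAs had medians of 53 nt in both replicates. A wider site meets a HITS-CLIP site more readily, so part of the gap to covered sites is built into the choice. At the upper limit, 22 PAR-CLIP-only sites of 290 to 299 nt and 21 uncovered sites of 300 to 309 nt had like scores, with medians of 4.43 and 4.33 above the lowest site of their mRNA. At the overlap limit, 225 PAR-CLIP-only sites within 1 to 10 nt of a HITS-CLIP AEG1 site had a median width of 74 nt, and 55 covered sites overlapped by 1 to 10 nt had 79 nt. Both of these sets had a median score of 1.59 above the lowest site.

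**Figure D2:**
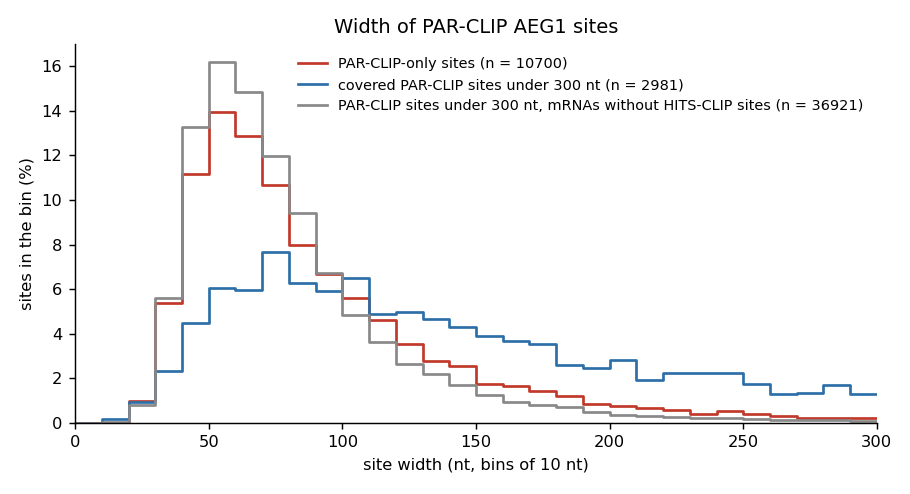
Share of sites (%, vertical axis) by site width in bins of 10 nt (horizontal axis) for PAR-CLIP-only sites, covered sites and narrow PAR-CLIP AEG1 sites on mRNAs without HITS-CLIP AEG1 sites. PAR-CLIP-only sites (median 74 nt) follow the sites of mRNAs without HITS-CLIP sites (69 nt) more closely than the covered sites (117 nt), which reach further to the right.

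The PAR-CLIP-only sites also scored lower than covered sites. On the 908 mRNAs that had both, the median score of the PAR-CLIP-only sites minus that of the covered sites was -1.15 on the log2 scale (quartiles -2 to -0.37). PAR-CLIP-only sites were the lower ones on 747 of these mRNAs, the higher ones on 131 and equal within 1e-05 on 30. Widths matter here, since wider sites scored higher in both sets. Against covered sites within 10 nt of their own width, on 624 mRNAs, the median difference was -0.42, with PAR-CLIP-only sites lower on 426, higher on 174 and equal within 1e-05 on 24. By width, their median score above the lowest PAR-CLIP AEG1 score of the mRNA rose from 0.42 under 50 nt to 4.02 at 250 to 299 nt. Covered sites went from 0.08 to 4.25 over the same widths, and were above PAR-CLIP-only sites in each width class but the narrowest. No test was made of these differences, because they come from 1 library and overlap with HITS-CLIP is not independent of the score.

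The gap differed in size and sign between single mRNAs. SSR1, a subunit of the translocon-associated protein complex, had 29 PAR-CLIP-only sites with a median score of 2.00, against 6.39 for its 3 covered sites. MTDH itself differed by -4.17. RELN, a large secreted matrix protein, had 34 PAR-CLIP-only and 34 covered sites with medians of 5.24 and 6.46. On LRP1, an endocytic receptor, the medians were both 4.73, over 31 PAR-CLIP-only and 25 covered sites. IGF1R, the receptor of insulin-like growth factor, went the other way, with 7.35 over 32 PAR-CLIP-only sites and 6.35 at its 1 covered site. IGF1R had 1 HITS-CLIP AEG1 site in each replicate, and HITS-CLIP control 1 had 1 site on it too. LRP1 and IGF1R were named after their values were seen.

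**Figure D3:**
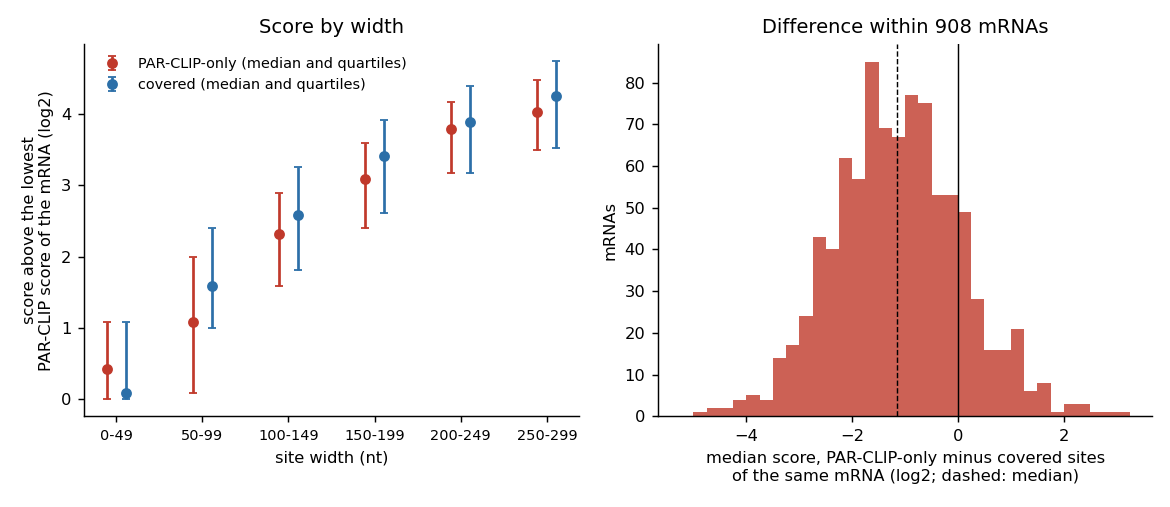
Left, median score above the lowest PAR-CLIP AEG1 score of the mRNA (log2, vertical axis) by site width (horizontal axis), with quartiles as bars, for PAR-CLIP-only and covered sites. Right, number of mRNAs (vertical axis) by the median score of PAR-CLIP-only minus covered sites of the same mRNA (log2, horizontal axis) for 908 mRNAs, with the median of -1.15 dashed and most mRNAs left of 0.

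At the low end, 2708 PAR-CLIP-only sites (25.3%) lay within 0.1 of the lowest PAR-CLIP AEG1 score of their mRNA, against 366 covered sites (12.3%) and 22.5% of all narrow sites on shared mRNAs. At the high end, 450 PAR-CLIP-only sites had the top PAR-CLIP AEG1 score of their mRNA, ties included, on 395 mRNAs, which is 4.21% of them against 12.4% of covered sites. Set against HITS-CLIP, 2266 PAR-CLIP-only sites (21.2%) on 642 mRNAs scored above every HITS-CLIP AEG1 site of the mRNA by more than 1e-05, and 2375 (22.2%) scored below every one. Covered sites were above every HITS-CLIP site in 33.7% and below every one in 6.21%. Pooled over mRNAs, PAR-CLIP-only sites thus occurred at both ends of the score range, with a larger share at the bottom than covered sites. Within single mRNAs they often stopped short of the top, which they reached on 395 of the 1151 mRNAs that carried them. The comparison with HITS-CLIP scores assumes a scale that the libraries share. Library depth may enter it, and its part was not tested.

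Some PAR-CLIP-only sites stood far above the typical site of their own mRNA. On SOAT1, which esterifies cholesterol in the ER membrane, the site at nt 533 to 825 scored 11.83, which is 3.70 above the median PAR-CLIP AEG1 site of the mRNA and higher than the top HITS-CLIP AEG1 score of 10.24. That SOAT1 site lay 48 nt from the nearest HITS-CLIP site. On FDPS, the synthase of farnesyl diphosphate, nt 1072 to 1297 scored 7.35 beside a top HITS-CLIP score of 5.24. CLTRN (collectrin, a membrane partner of amino acid transporters) had such a site at nt 215 to 437, with 13.40 beside 10.90. CD47, the surface protein that restrains phagocytosis, had one at nt 172 to 441, with 14.03 beside 12.26. These 4 sites were each within 237 nt of a HITS-CLIP AEG1 site that they did not overlap.

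Further sites of this kind lay on TMEM45B (nt 92 to 340, 10 nt from a HITS-CLIP site) and on MAP2K7, a kinase that activates JNK (nt 1696 to 1831, 101 nt away). CLCC1, a chloride channel of the ER, had one at nt 493 to 690, 59 nt from a HITS-CLIP site. GSPT1, the translation release factor eRF3a, had a pair with equal scores of 6.71 at nt 868 to 1111 and nt 2301 to 2442, the second 1023 nt from the nearest HITS-CLIP site. SSR1 was the exception by height: its site at nt 1252 to 1403 scored 5.32, below the top HITS-CLIP AEG1 score of 5.999. The other 9 of these 10 sites scored above every HITS-CLIP site of their mRNA. The 5 widest PAR-CLIP-only sites, of 297 to 299 nt, lay on INSR (nt 227 to 525), COLGALT1 (nt 669 to 967), SF3B3 (nt 38 to 335), MAN1A1 (nt 2844 to 3141) and MGAT4B (nt 1150 to 1446). Of those, COLGALT1, MAN1A1 and MGAT4B encode sugar-transferring or sugar-trimming enzymes of the ER and Golgi, and SF3B3 encodes a splicing factor.

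Along the mRNA, PAR-CLIP-only sites lay more often after the HITS-CLIP sites than before or between them. After the last HITS-CLIP AEG1 site were 5751 (53.7%, exact 95% interval 52.8% to 54.7%), before the first 2264 (21.2%) and between them 2685 (25.1%). Of all narrow sites on shared mRNAs, 42% lay after the last HITS-CLIP site, and covered sites cannot lie outside the HITS-CLIP sites. The interval covers counting error over sites only, and sites of 1 mRNA are not independent. By mRNA, 724 of 1151 had more PAR-CLIP-only sites after than before, 294 had the reverse and 133 had as many on each side. On 231 mRNAs every PAR-CLIP-only site was after the last HITS-CLIP site, and on 78 every one was before the first.

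Distances to the nearest HITS-CLIP AEG1 site differed by side. The median was 454.5 nt over all PAR-CLIP-only sites (quartiles 145 to 1205 nt), 844 nt for those after the last HITS-CLIP site, 358 nt for those before the first and 124 nt for those between. Only 1129 (10.6%) lay 1 to 50 nt from a HITS-CLIP site and 10 touched one without overlap, while 3183 (29.7%) were over 1000 nt away. The closest named, on SLC7A9 (a cystine transporter subunit), lay at nt 1132 to 1176, 0 nt from a HITS-CLIP site. The furthest lay on KMT2A, a histone H3 methyltransferase, at nt 16072 to 16249, which is 15844 nt away. KMT2A had 38 PAR-CLIP-only sites, all after HITS-CLIP AEG1 sites that sat at nt 198 to 227 in replicate 1 and nt 196 to 227 in replicate 2. Other PAR-CLIP AEG1 sites were much closer than HITS-CLIP ones: the median distance to the next PAR-CLIP AEG1 site was 20 nt, and 82.6% had one within 100 nt. Covered sites had a median of 10 nt to the next, so both sets lay in runs of PAR-CLIP AEG1 sites.

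Relative to the span from the first base to the furthest PAR-CLIP AEG1 end of each mRNA, the median PAR-CLIP-only site lay at 0.570, against 0.429 for covered sites and 0.400 and 0.401 for HITS-CLIP AEG1 sites. Narrow PAR-CLIP AEG1 sites on mRNAs without HITS-CLIP sites had a median of 0.557. In the last of 10 equal parts of the span lay 16.4% of PAR-CLIP-only sites, 6.71% of covered sites and 4.60% and 4.89% of HITS-CLIP AEG1 sites, beside 20.3% of the sites on mRNAs without HITS-CLIP sites. The HITS-CLIP shares include 35 and 32 sites beyond the end of the span, which were counted in its last part. Because a PAR-CLIP AEG1 site defines the end of the span, some of that last share is built in. In parts 2 to 9 the PAR-CLIP-only share stayed between 8.86% and 10.8%, whereas HITS-CLIP replicate 1 went from 15.0% in part 3 to 5.40% in part 9. Over those parts PAR-CLIP-only sites were thus spread nearly evenly, and HITS-CLIP sites thinned toward the 3′ side. The coding region was not mapped here, so these positions are not divided into coding and untranslated sequence.

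**Figure D4:**
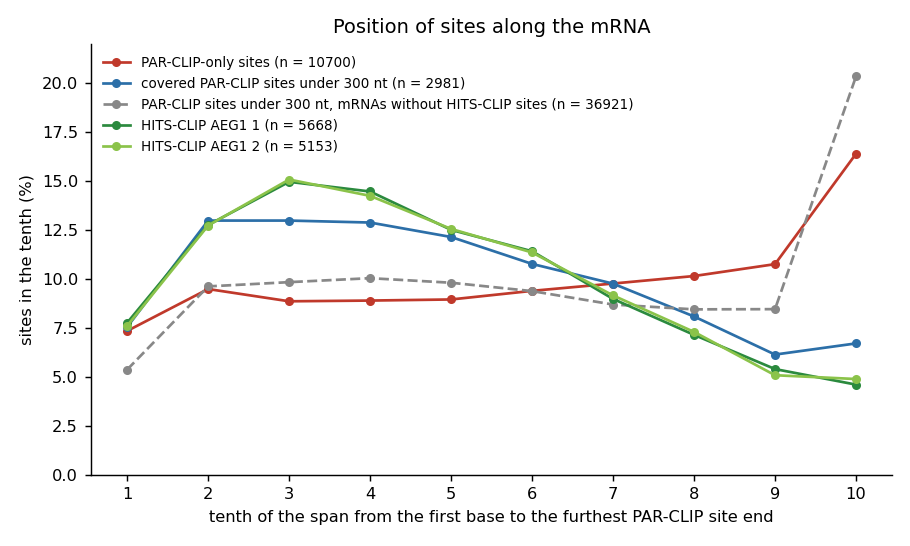
Share of sites (%, vertical axis) in each of 10 equal parts of the span from the first base of the mRNA to its furthest PAR-CLIP AEG1 end (horizontal axis), for PAR-CLIP-only sites, covered sites, both HITS-CLIP AEG1 replicates and narrow PAR-CLIP AEG1 sites on mRNAs without HITS-CLIP sites. HITS-CLIP sites and covered sites fall off after the middle, and PAR-CLIP-only sites rise to 16.4% in the last.

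On 7 of 28 translocation and glycosylation mRNAs with a PAR-CLIP-only site, and on 7 of 23 for ER folding and quality control, every such site lay after the last HITS-CLIP site, beside 231 of 1151 over all shared mRNAs. Other lists of endomembrane proteins were lower, with 2 of 30 for Golgi and lysosome and 0 of 17 for ER lipid and sterol enzymes. All endomembrane lists together had 23 of 161, and the lists of cytosolic and nuclear proteins 18 of 82. The arrangement was thus not particular to mRNAs of ER proteins. SSR1 had 7 HITS-CLIP AEG1 sites in each replicate, from nt 156 to 1196, and all 29 PAR-CLIP-only sites followed from nt 1252 to 9566. Its covered sites, with scores of 6.28 to 7.06, filled nt 475 to 1226, and the PAR-CLIP-only scores ran from 0.91 to 5.32. TMED10 and TMED2, cargo receptors of the early secretory pathway, had 20 of 20 and 7 of 7 PAR-CLIP-only sites after the last HITS-CLIP site. TRAM1, which sits beside the translocon, had 6 of 6 there, and SEC61A1, the channel itself, 5 of 5. LMAN1, the mannose-binding cargo receptor, had 16 of 16, and SYVN1, the ubiquitin ligase of ER-associated degradation, 10 of 10. These mRNAs carried HITS-CLIP AEG1 sites on the part before, from 2 in each replicate on TMED2 to 15 and 17 on SEC61A1. They were named for their position after their values were seen, and other mRNAs of the same lists differed. STT3B, a catalytic subunit of oligosaccharyltransferase, had 8 of 9 before the first HITS-CLIP site, and NCLN (nicalin, an ER membrane protein) had 9 of 12 between. SEC62, a translocation factor, had 8 of 13 after and 5 before.

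Cell-surface and lysosomal proteins gave both arrangements. CD59, which blocks complement at the cell surface, had 22 PAR-CLIP-only sites from nt 696 to 6928, all after HITS-CLIP AEG1 sites at nt 352 to 477. TFRC, the transferrin receptor, had 25 and 21 HITS-CLIP AEG1 sites from nt 1 to 2664, and its 12 PAR-CLIP-only sites all lay from nt 2772 to 5224. SLC38A2, an amino acid transporter, had 16 of 16 after the last HITS-CLIP site, and LAMP2, a lysosomal membrane protein, 11 of 11. On LRP1, by contrast, all 31 PAR-CLIP-only sites lay between the 28 and 22 HITS-CLIP AEG1 sites. RELN had 28 of 34 between, 5 after and 1 before. Outside the endomembrane system, FASN (fatty acid synthase) had 20 of 21 between its HITS-CLIP sites, whereas HK2 (hexokinase) had 14 of 14 after the single HITS-CLIP AEG1 site of each replicate. PUM2, an RNA-binding repressor, had 15 of 20 before its HITS-CLIP site and LARS1, the leucyl-tRNA synthetase, 11 of 11.

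AEG-1's own message, MTDH, is also the transcript of the tagged protein, and its HITS-CLIP and PAR-CLIP sites were dense over nt 258 to 2107. HITS-CLIP AEG1 gave 10 and 8 MTDH sites from nt 396 to 1941, with top scores of 9.24 and 10.12, and the PAR-CLIP control had 1 site at nt 885 to 991 with a score of 5.996. PAR-CLIP AEG1 gave 2 wide sites, at nt 258 to 563 and nt 833 to 2107 with a score of 12.34, and 1 covered site at nt 626 to 770. The 9 PAR-CLIP-only sites scored between 4.91 and 7.32. Of these, 1 lay at nt 776 to 810 among the HITS-CLIP sites, and 8 followed the last one, from nt 2379 to 4449. They held 27.2% of the nt in PAR-CLIP AEG1 sites on MTDH and 8.92% of the summed linear score. The labels do not say which parts of the MTDH message the introduced construct carries.

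The share of an mRNA's narrow sites that were PAR-CLIP-only differed between groups of genes. Over all shared mRNAs with a narrow site the median share was 80%. Over 172 mRNAs of endomembrane proteins (secreted, ER, Golgi, lysosomal and plasma membrane) it was 70%, with 58 above the overall median. Over 87 mRNAs of cytosolic and nuclear proteins it was 85.7%, with 54 above. Weighed by length, the order was reversed. PAR-CLIP-only sites held a median of 41.7% of PAR-CLIP AEG1 nt on endomembrane mRNAs and 34.9% on cytosolic and nuclear ones. Only 6 mRNAs of nuclear-encoded mitochondrial proteins were shared, with 22 PAR-CLIP-only of 25 narrow sites. The number of HITS-CLIP sites also differed between the pools: the endomembrane mRNAs had medians of 8 and 7 HITS-CLIP AEG1 sites and the cytosolic and nuclear ones 3 and 2.

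On any 1 mRNA, a further HITS-CLIP site cannot raise the share of narrow sites that are PAR-CLIP-only. Between mRNAs, this share fell with the number of HITS-CLIP sites. By the lower of both replicates' numbers, the median share was 88.9% on mRNAs with 1 HITS-CLIP AEG1 site, 77.8% with 2, 71.4% with 3 to 5, 66.7% with 6 to 9 and 50% with 10 or more. Within mRNAs of 1 or 2 HITS-CLIP sites, the endomembrane and the cytosolic and nuclear medians were 87.5% and 88.9%. With 3 to 9 they were 73.1% and 83.8%, and with 10 or more 50% and 77.7%, the last over 8 mRNAs. The medians of the pools lay close with 1 or 2 HITS-CLIP sites and further apart with 3 to 9 and with 10 or more. Their intervals overlapped in each class, so the values do not settle whether the gap was wider with more HITS-CLIP sites. With 1 or 2 sites the intervals were 80% to 91.7% (endomembrane) and 83.3% to 98.9% (cytosolic and nuclear). With 3 to 9 they were 66.7% to 79.2% and 57.1% to 100%, and with 10 or more 40% to 57.5% and 27.8% to 100%. By nt, the endomembrane median was the higher one with 1 or 2 sites (73.4% against 49.2%) and with 3 to 9 (44.1% against 21.6%). With 10 or more it was the lower one (11.1% against 14.1%). This split was chosen after the data were seen, and the part of HITS-CLIP site number in the gap was not tested.

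Among endomembrane lists, secreted liver proteins had the lowest median share, 46.9% over 32 mRNAs, with 3 above the overall median. F5, coagulation factor V, was at the upper end with 39 of 42 narrow sites, and 33 of the 39 lay after the last HITS-CLIP site. RELN had 34 of 68, AGRN (agrin, a matrix proteoglycan) 6 of 36 and LAMB1 (a laminin chain) 8 of 31. AGRN and LAMB1 also had many HITS-CLIP AEG1 sites, 49 and 35 on the first and 31 and 27 on the second. APOB, the protein of very-low-density lipoprotein, had 98 and 97 HITS-CLIP AEG1 sites and 4 PAR-CLIP-only of 10 narrow sites, beside 13 wide ones. ALB and SERPINA1 had control sites in all 3 controls, so their 2 and 9 PAR-CLIP-only sites sit on mRNAs that were recovered without UV too.

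ER folding and quality control had a median of 66.7% over 25 mRNAs. DNAJC3 and DNAJC10, co-chaperones of the ER lumen, had the most with 25 of 26 and 24 of 26, and SEL1L, the partner of SYVN1, had 21 of 31. Translocation and glycosylation machinery had 81.7% over 28 mRNAs. There SSR1 had 29 of 32 and EMC1, of the ER membrane insertase, 21 of 25. ER lipid and sterol enzymes had 87.5% over 17 mRNAs, with most sites on SREBF2 (24 of 26) and FADS1 (19 of 21). SREBF2 is a transcription factor made as an ER membrane precursor, and FADS1 is a fatty acid desaturase. Plasma membrane receptors and transporters had 79.2% over 39 mRNAs, with most sites on INSR (41 of 49) and FAT1 (41 of 50), a giant protocadherin. Golgi and lysosome had 66.7% over 31, with most sites on TGOLN2 (24 of 28) and SORT1 (24 of 25), sorting proteins of the trans-Golgi network.

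Among cytosolic and nuclear lists, RNA-binding and splicing proteins had 95.2% over 11 mRNAs, among them SRRM2 (34 of 39), a spliceosome scaffold. Chromatin and nuclear factors had 95.3% over 5 mRNAs, with MKI67 (61 of 64) and KMT2A (38 of 38). Cytoskeleton and motors had 85.2% over 20, with most sites on DYNC1H1 (66 of 82) and FLNA (43 of 51), both below the list's median share. SPTBN1, a spectrin chain, was low in that list with 5 of 18 narrow sites, and it had 30 and 42 HITS-CLIP AEG1 sites. Translation factors and tRNA synthetases had 87.5% over 11, with GSPT1 (24 of 27) and EIF4G1 (16 of 19), the scaffold of cap-binding. Proteasome, chaperones and ubiquitin ligases had 90% over 5, with UBR4 (88 of 89) and UBA1 (18 of 20), the ubiquitin-activating enzyme. Glycolysis and cytosolic metabolism had 93.8% over 10, with FASN (21 of 26) and GPI (15 of 15), glucose-6-phosphate isomerase. Ribosomal protein mRNAs were the exception in this pool, with 66.7% over 25 short messages that held 51 PAR-CLIP-only of 81 narrow sites, with RPL4 (8 of 9) and RPL3 (6 of 8) at the top by number, and their processed pseudogenes make these counts uncertain. In the mitochondrial list, PC, pyruvate carboxylase, had 10 of 11 and COX4I1, a subunit of cytochrome c oxidase, 4 of 6.

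The share of PAR-CLIP-only sites after the last HITS-CLIP site ranged widely over the lists, beside 53.7% over all of them. In the endomembrane pool it was 56.4%, from 47.6% for secreted liver proteins and 48.5% for plasma membrane receptors and transporters to 69.7% for translocation and glycosylation machinery and 70.2% for ER folding and quality control. Golgi and lysosome had 59.0% and ER lipid and sterol enzymes 60.3%. In the cytosol and nucleus pool it was 38.1%, from 16.8% for proteasome, chaperones and ubiquitin ligases, where UBR4 had 79 of its 88 sites before, and 24.9% for cytoskeleton and motors to 62.8% for glycolysis and cytosolic metabolism. These shares count sites, so mRNAs with many sites weigh most. Counted by mRNA, the pools stood in the other order. Every PAR-CLIP-only site lay after the last HITS-CLIP site on 18 of 82 cytosolic and nuclear mRNAs and on 23 of 161 endomembrane ones.

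**Figure D5:**
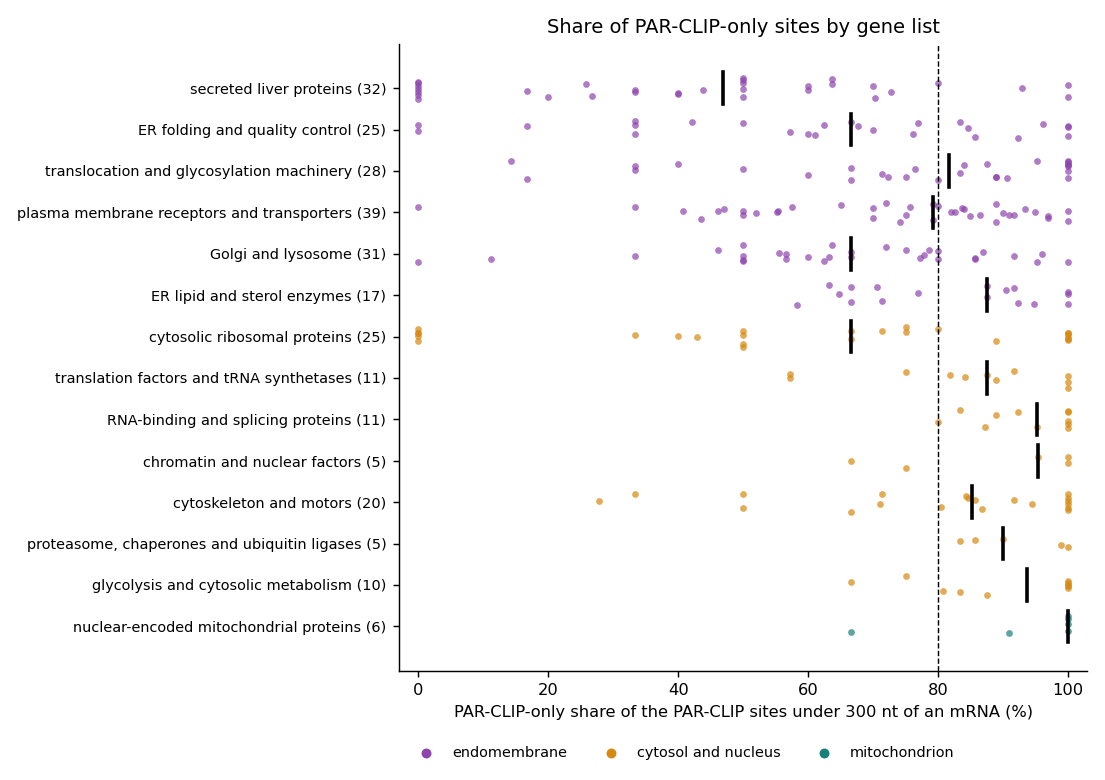
PAR-CLIP-only share of the PAR-CLIP AEG1 sites under 300 nt (%, horizontal axis), with 1 point per shared mRNA, by gene list (vertical axis, number of mRNAs in parentheses), coloured by pool. Black bars are list medians and the dashed line is the median of all shared mRNAs, 80%; secreted liver proteins have the lowest median, 46.9%.

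In the unirradiated controls, sites at the PAR-CLIP-only places were rare. No PAR-CLIP-only site overlapped a site of HITS-CLIP control 1 or 2, and 3 overlapped a PAR-CLIP control site, which is 0.0280% of 10700. Of all narrow sites on shared mRNAs, 0.358% overlapped a control site, and of covered sites 46 did (1.54%). The 3 were on FURIN, a Golgi protease (nt 3490 to 3732), ACTN4, which crosslinks actin (nt 2989 to 3133), and TMBIM6, an ER membrane protein (nt 2410 to 2661). With only 60, 90 and 121 sites in the 3 controls, few overlaps were possible. A PAR-CLIP-only site cannot overlap a HITS-CLIP AEG1 site, so places that the HITS-CLIP libraries shared with their own controls are left out by the rule.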

How the data were processed

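Each list gives the sites of 1 library as a RefSeq mRNA accession, a symbol, a start, an end and the authors' deposited score, whose values behave as log2 units. Its formula, the site caller, the thresholds and the transcript version are not stated in the labels or lists. Positions are deposited as whole numbers, in nt. Each deposited start was assumed to lie 1 nt before the first base of the site, so 1 was added to it in print. The submitters' processing notes name Bowtie. Reads were 50 nt single reads per the labels' protocols. Symbols were updated from RefSeq (GRCh38.p14), by accession for 8146 of 8204 transcripts and by symbol or synonym for 51, and 7 kept theirs. Overlaps were counted in Python 3.11.15 with pandas 2.3.3 and numpy 2.4.6 and were tested on simulated sites. No test was run, because PAR-CLIP AEG1 has 1 library and 2 HITS-CLIP replicates against 2 controls cannot pass an exact test at 0.05. Shares have exact Clopper-Pearson 95% intervals (scipy 1.17.1), which cover counting error only. Named are the 10 mRNAs with most PAR-CLIP-only sites, the 8 with most narrow sites and none PAR-CLIP-only, 2 per list, MTDH, and sites by score (10), width (5) and distance. Other genes were named after their values were seen. Some genes that this choice names are not reported here. The members and the 14 gene lists (524 genes) were chosen with earlier results of these data known. Alternatives varied the width limit, the overlap, site length, score, number of HITS-CLIP sites, replicate and gene families. Transcript and protein sequences were not used here.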

Additional observations from a re-analysis of the deposited data

How the results depend on the processing

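Of 76 recomputed values, 38 moved by more than their interval or, for the number of sites, by over 1.5 times. With a width limit of 200 nt the median width was 73 nt, the score difference -1 and the endomembrane and cytosolic and nuclear median shares 76.3% and 95.1%. With no width limit the score difference was -1.61 and the shares 60% and 66.7%. Counting sites overlapped over less than 50% as well gave 81 nt, -0.32, 46.7% after the last HITS-CLIP site, shares of 92.2% and 100%, and 0.235% overlapping a control. Requiring 100 nt to the nearest HITS-CLIP site gave -0.76, 61.2% after, and shares of 46.6% and 66.7%. Without sites of 25 nt or less, 55.1% lay after. Only sites above the mRNA's median score left 3906 sites, with 107 nt, -0.42, 51.5% after, and shares of 58.6% and 72.1%. At least 3 HITS-CLIP sites per replicate left 4072 sites, with 79 nt, -1.33 and 50.9% after. Leaving out 1 HITS-CLIP replicate gave 14551 to 15828 sites, 57.3% to 57.9% after, and shares of 77.8% to 80% and 93.3% to 94.9%. Without families of near-identical genes and genes with a control site, 0% overlapped a control, by construction. Chosen after seeing the data, mRNAs with 1 or 2 HITS-CLIP sites gave an endomembrane share of 87.5%, and those with 10 or more gave 50%, beside 77.7% for cytosolic and nuclear mRNAs. The score difference, which was not recomputed by number of HITS-CLIP sites in this last way, stayed below 0 in its 10 alternatives. The endomembrane share of narrow sites, by count, stayed below the cytosolic and nuclear one in its 13. The 95% intervals of both medians overlapped in several of these, among them no width limit (55.4% to 66.7% against 52.6% to 71.4%). In others, such as the limit of 200 nt, they did not. Weighed by nt, the endomembrane share was the higher one in the main setting, 41.7% against 34.9%. The nt share was recomputed only by number of HITS-CLIP sites. No paired analysis was possible because PAR-CLIP AEG1 has 1 library, where pairing means matching libraries by replicate number. Within that library, scores were compared between sites of the same mRNA, on 908 mRNAs and, at like width, on 624. The planned division at the coding length and by hydrophobic stretches was not run, because protein sequences were not at hand. The lists give no read counts, so depth cannot be weighed.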
